A study of Mus musculus with 8 samples.

Results

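The 9 genes *Dlx1*, *Dlx2*, *Dlx5*, *Dlx6*, *Gsx2*, *Sp8*, *Sp9*, *Pax6* and *Eomes* encode transcription factors of the dividing progenitors of the ventricular-subventricular zone (V-SVZ) and of the young neurons these cells make. They were taken by name, as 9 of the 54307 gene identifiers in the count table. RNA was sequenced from periventricular tissue containing the V-SVZ, 1 hemisphere per mouse, of 4 *Lrig1* knockout (KO) mice and 4 wild-type (WT) mice at 8 weeks of age. The KO mice were homozygous for CreERT2 inserted at the *Lrig1* locus, which makes them constitutive knockouts, the WT mice were littermates without the insertion, and both groups were on the 129-Elite background. The WT group held 3 females and 1 male (WT mouse 2), and the KO group held 2 females (KO mice 2 and 4) and 2 males (KO mice 1 and 3). Depth, as the total of a mouse's gene counts, was 47887437 to 61826150 for WT and 52664769 to 74482334 for KO.

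The adult V-SVZ keeps neural stem cells that divide into transit amplifying cells, which in turn make neuroblasts that migrate to the olfactory bulb and become interneurons. The homeobox gene *Gsx2* sets the identity of lateral progenitors, and the *Dlx* homeobox genes carry them towards GABAergic interneurons, with *Dlx1* and *Dlx2* acting ahead of *Dlx5* and *Dlx6*. *Sp8* and *Sp9* are zinc finger factors of the neuroblasts and of the interneurons they form, *Pax6* acts in dorsal progenitors and in the dopaminergic lineage, and *Eomes*, also called *Tbr2*, marks intermediate progenitors of glutamatergic neurons. KO and WT mice were compared to ask whether the RNA levels of these regulators differed after loss of *Lrig1*, a gene studied for its part in neural stem cell proliferation.

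None of the 9 genes passed the test for a difference between KO and WT mice. In the quasi-likelihood test of edgeR, with p adjusted by Benjamini-Hochberg over the 17669 genes tested, 0 of 9 passed an adjusted p of 0.1, against 0.00566% of all genes, which was 1 gene. That 1 gene was not the targeted *Lrig1*, which this test did not call (adjusted p 0.286) at a log2 fold change of -3.80. At an unadjusted p under 0.05 there were again 0 of 9, against 1.88% of all genes, and 0 of 9 had groups that did not overlap, against 1.53% of all genes. The estimate was higher in KO for 7 and lower for 2, with a median log2 fold change of 0.13 beside -0.00094 over all genes. Single mice decided this split, which was 3 higher and 6 lower without KO mouse 2 (median -0.10) and 4 higher and 5 lower without WT mouse 2 (median -0.03). DESeq2 also called 0 of 9, both with sex as a covariate, where it called 201 of all genes, and without it, where it called 12. The smallest unadjusted p of any of the 9 in any of the fits was 0.0515, for *Dlx5* in DESeq2 with sex. All 9 passed the filter on low counts. In bulk tissue, fewer cells of a type and less RNA per cell cannot be told apart. The cells that held the RNA of the 9 genes, which may include others than progenitors and young neurons, cannot be told either.

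The targeted gene was checked first. *Lrig1*, which encodes a transmembrane regulator of growth factor receptors, stood at 45.6, 13.5, 41.4 and 34.3 CPM (counts scaled to library size by the TMM method) in WT mice 1 to 4 and at 1.41, 4.15, 1.17 and 2.96 CPM in KO mice 1 to 4. The groups did not overlap, and the log2 fold change was -3.80 (SE 0.52), with an adjusted p of 0.286 in edgeR. Over the alternative fits its adjusted p ran from 4.88e-97 in DESeq2 with sex to 1 in edgeR without WT mouse 1, and its log2 fold change from -4.45 to -3.47. WT mouse 2 held the lowest *Lrig1* level among the WT mice. The same mouse stood apart in tissue markers. The summed level of 10 cortical excitatory neuron markers was 7005 CPM in it, 3067 to 3248 CPM in the other WT mice and 2257 to 3970 CPM in KO, and the summed level of 10 striatal medium spiny neuron markers was lowest in it, at 3033 CPM of a range reaching 9243 CPM. KO mouse 2 had the lowest summed level of 8 oligodendrocyte markers, 6060 CPM, where the other mice lay between 7180 and 7817 CPM, and the highest summed level of 10 ependymal markers, 75.4 CPM.

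*Gsx2* (ENSMUSG00000035946.8, chromosome 5) was measured at 0.989, 0.704, 1.002 and 1.183 CPM in WT mice 1 to 4 and at 0.976, 1.083, 0.809 and 1.419 CPM in KO mice 1 to 4. The lowest mouse was a WT and the highest a KO, and the groups overlapped over most of their range. KO over WT gave a log2 fold change of 0.15 (SE 0.24, 95% confidence interval -0.40 to 0.69). The estimated counts behind these values ran from 43 to 90, so counting error alone gave a coefficient of variation of 13.1%, of the 21.5% seen over the 8 mice.

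*Pax6* (ENSMUSG00000027168.22, chromosome 2) was the steadiest of the 9, at 8.26, 9.03, 7.65 and 9.54 CPM in the WT mice and at 8.96, 7.80, 8.19 and 7.06 CPM in the KO mice. Its coefficient of variation over the 8 mice was 9.89%, and its highest mouse was 1.35 times its lowest. Its log2 fold change was -0.11 (SE 0.11, interval -0.37 to 0.15), which places the KO level between 0.776 and 1.11 times that of WT. *Pax6* was the 1 gene of the 9 whose direction was the same, lower in KO, in all 18 alternative fits, and it passed the threshold in none of them. The 18 include the main fit read at a threshold of 0.05, whose direction was fixed in advance.

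*Dlx1* (ENSMUSG00000041911.4) and *Dlx2* (ENSMUSG00000023391.9) face each other on chromosome 2, with 9.43 kb between the ends of the genes in GRCm38. *Dlx1* was measured at 23.7, 28.2, 22.1 and 32.5 CPM in the WT mice and at 27.3, 48.3, 23.9 and 21.4 CPM in the KO mice. KO mouse 2 was the highest of the 8, and the other KO mice lay within or just below the WT range. The log2 fold change of 0.18 (SE 0.25, interval -0.39 to 0.76) became -0.14 without KO mouse 2. *Dlx2* was measured at 13.9, 13.6, 15.9 and 18.5 CPM in the WT mice and at 16.2, 21.2, 12.3 and 13.4 CPM in the KO mice. The highest mouse was again KO mouse 2, and the log2 fold change was 0.03 (SE 0.18, interval -0.38 to 0.44), or -0.15 without that mouse.

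*Dlx5* (ENSMUSG00000029755.11) and *Dlx6* (ENSMUSG00000029754.14) form the like pair on chromosome 6, with 9.24 kb between them. *Dlx5* was measured at 17.5, 7.87, 18.5 and 17.4 CPM in the WT mice and at 14.9, 16.3, 15.6 and 20.7 CPM in the KO mice. WT mouse 2 had less *Dlx5* than any other mouse, and the remaining WT mice lay inside the KO range. The log2 fold change of 0.14 (SE 0.25, interval -0.43 to 0.71) became -0.08 without WT mouse 2. *Dlx6* was measured at 32.9, 12.8, 34.7 and 24.1 CPM in the WT mice and at 25.7, 30.1, 25.3 and 33.3 CPM in the KO mice. Here too WT mouse 2 was lowest, and the log2 fold change of 0.13 (SE 0.27, interval -0.49 to 0.75) became -0.10 without it.

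*Sp9* (ENSMUSG00000068859.6, chromosome 2) was measured at 32.3, 17.6, 40.1 and 37.0 CPM in the WT mice and at 34.7, 31.3, 26.5 and 33.9 CPM in the KO mice. All 4 KO mice lay inside the WT range, whose lower end was WT mouse 2. KO over WT stood at a log2 fold change of -0.01 (SE 0.23, interval -0.53 to 0.51), -0.21 without WT mouse 2 and 0.17 with sex as a covariate. *Sp8* (ENSMUSG00000048562.8, chromosome 12) was measured at 4.19, 7.54, 5.69 and 8.16 CPM in the WT mice and at 8.57, 10.3, 4.83 and 3.94 CPM in the KO mice. KO mouse 2 was the highest and KO mouse 4 the lowest of the 8. The log2 fold change was 0.11 (SE 0.33, interval -0.64 to 0.86), or -0.15 without KO mouse 2.

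*Eomes* (ENSMUSG00000032446.15, chromosome 9) was the rarest and the most variable of the 9. It was measured at 0.20, 0.39, 0.17 and 0.77 CPM in the WT mice and at 0.18, 1.64, 0.28 and 0.46 CPM in the KO mice. KO mouse 2 stood highest with 97 counts, and the lowest mouse, WT mouse 3, had 8. The coefficient of variation was 97.7%, against 18.4% from counting error at the mean count of 29.6. The log2 fold change of 0.73 (SE 0.75, interval -0.97 to 2.44) became -0.33 without KO mouse 2. At this depth and spread the interval left both a lower and a higher level in KO possible.

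**Figure D1:**
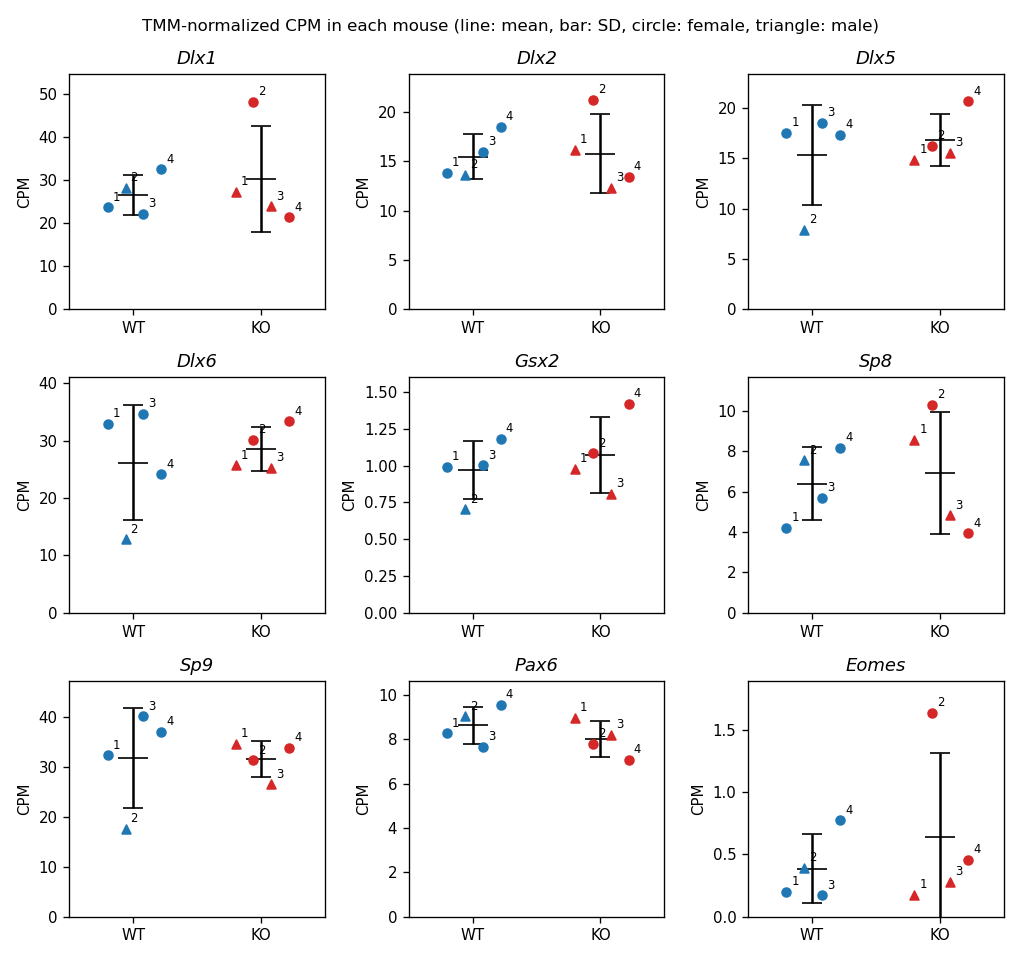
Each panel plots the TMM-normalized CPM of 1 gene on the vertical axis for WT (blue) and KO (red) mice, with circles for females, triangles for males, the mouse number beside each point, a line at the mean and bars of 1 SD (n = 4, cut at 0 for *Eomes*). The groups overlapped for all 9 genes, WT mouse 2 was lowest for *Dlx5*, *Dlx6*, *Gsx2* and *Sp9*, and KO mouse 2 was highest for *Dlx1*, *Dlx2*, *Sp8* and *Eomes*.

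The intervals give the range of differences that these values left possible. They reached from 0.776-fold to 1.11-fold for *Pax6*, from 0.767-fold to 1.36-fold for *Dlx2*, from 0.694-fold to 1.43-fold for *Sp9* and from 0.509-fold to 5.41-fold for *Eomes*. The groups differed in their share of males, so KO was also compared with WT among the 5 females alone. The log2 fold changes were then 0.42 for *Dlx1*, 0.11 for *Dlx2*, 0.06 for *Dlx5*, 0.06 for *Dlx6*, 0.25 for *Gsx2*, 0.25 for *Sp8*, -0.16 for *Sp9*, -0.19 for *Pax6* and 1.46 for *Eomes*. The edgeR adjusted p of each of these was at least 0.844. With sex as a covariate over all 8 mice, edgeR gave 0.36 for *Dlx5*, 0.37 for *Dlx6* and 0.28 for *Gsx2*, with adjusted p of 0.784, 0.797 and 0.858, beside 0.14, 0.13 and 0.15 without the covariate. DESeq2 with sex gave 0.36 for *Dlx5* (unadjusted p 0.0515) and 0.37 for *Dlx6* (unadjusted p 0.0606). The only WT male was WT mouse 2, the lowest of the 8 mice for *Dlx5*, *Dlx6* and *Gsx2*. In these fits the part of sex in WT cannot be told apart from that of this mouse. Without WT mouse 2 and without the covariate, edgeR gave -0.08 for *Dlx5*, -0.10 for *Dlx6* and 0.02 for *Gsx2*.

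**Figure D2:**
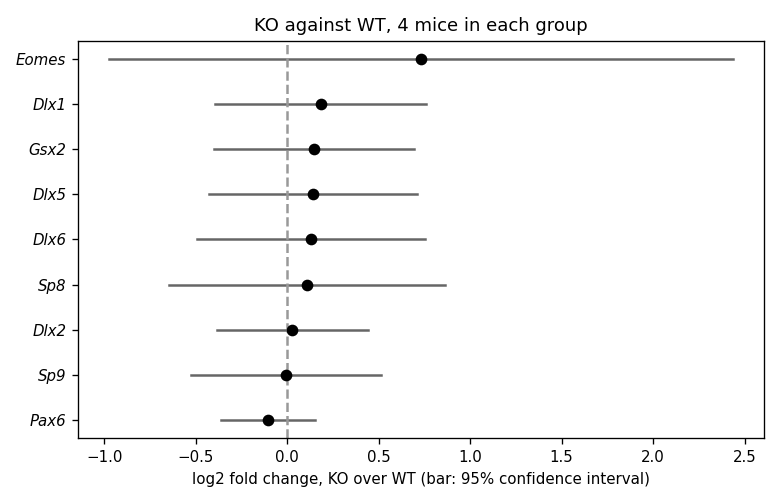
The horizontal axis gives the log2 fold change of KO over WT and the vertical axis the 9 genes, with points for the estimates and bars for their 95% confidence intervals (n = 4 per group). Every interval includes 0, the narrowest is that of *Pax6* and the widest that of *Eomes*.

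Levels between genes were compared per length, in TPM, which corrects for transcript length, summed over the transcripts of a gene. The mean over the 8 mice was 42.9 ± 7.93 TPM (SD, n = 8) for *Dlx6*, 18.4 ± 4.34 for *Dlx5*, 15.9 ± 4.96 for *Dlx1*, 9.67 ± 1.86 for *Sp9*, 9.55 ± 1.95 for *Dlx2*, 4.67 ± 0.825 for *Pax6*, 2.59 ± 0.951 for *Sp8*, 0.979 ± 0.239 for *Gsx2* and 0.210 ± 0.198 for *Eomes*. Of the 8 pairs of neighbours in this order, 6 differed in the same direction in 8 of 8 mice, each with p = 0.00781, the smallest that an exact two-sided paired permutation test on log2 ratios allows with 8 mice, and an adjusted p of 0.0104. *Dlx5* and *Dlx1* did not differ beyond their spread, with a ratio of 1.17 and *Dlx5* higher in 5 of 8 mice (exact permutation p = 0.320, adjusted p = 0.366). Neither did *Sp9* and *Dlx2*, with a ratio of 1.01 (exact permutation p = 0.883 before and after adjustment). The largest step was that from *Gsx2* to *Eomes*, a ratio of 6.27. The order was set from these same values, and the p-values do not cover how TPM is summed. *Dlx1-201* held 45.6% of the *Dlx1* TPM, and the retained-intron transcripts *Dlx1-206* and *Dlx1-203* held 25.5% and 11.9%. *Dlx1-201* was at 5.70 TPM and *Sp9-201* at 9.59 in WT mouse 1, but at 7.84 and 6.07 in WT mouse 2. For *Dlx6*, *Dlx6-201* held 43.6% of the TPM and *Dlx6-202*, the transcript with the most estimated counts, 21.6%. In WT mouse 1, *Dlx6-201* was at 20.3 TPM, *Dlx5-201* at 18.4 and *Dlx6-202* at 10.8. *Dlx6-202* was below *Dlx5-201* in every mouse. The order of *Dlx1* and *Sp9* and that of *Dlx6* and *Dlx5* thus depended on the transcripts counted. In CPM, which does not correct for length, the order was another, with *Sp9* first at 31.7, then *Dlx1* at 28.4, *Dlx6* at 27.4, *Dlx5* at 16.1 and *Dlx2* at 15.6.

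Over the mice, the 9 genes did not vary as 1 group. Of the 36 pairs, 22 were positively correlated in log2 CPM, and the median r was 0.18. As a description, r ran from 0.69 to 0.95 among *Dlx5*, *Dlx6*, *Sp9* and *Gsx2*, from 0.52 to 0.84 among *Dlx1*, *Dlx2*, *Sp8* and *Eomes*, and from -0.39 to 0.42 between these groups of 4 genes. Several of these values rested on the 2 mice farthest from the median: without them, r fell to 0.00 for *Dlx6* with *Sp9*, to -0.06 for *Dlx1* with *Eomes* and to -0.66 for *Dlx2* with *Eomes*. Spearman's rho was 0.26 for *Eomes* with *Dlx2* and 0.26 with *Sp8*. *Pax6* gave r = -0.64 with *Dlx6* and 0.54 with *Sp8*, and its r with *Dlx1* was 0.28, or 0.96 without the 2 mice farthest from the median of *Dlx1*. After each genotype's mean was subtracted, 21 of the 36 pairs were positive and the median was 0.19.

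4 of the 36 pairs passed an adjusted p of 0.1 by Pearson's r, and 0 passed by Spearman's rho. *Dlx5* and *Dlx6* gave r = 0.95 (exact permutation p = 0.00501, adjusted p = 0.0902) and rho = 0.81 (exact permutation p = 0.0218, adjusted p = 0.196), and r = 0.64 without the 2 mice farthest from the median of *Dlx5*. *Dlx1* and *Sp8* gave r = 0.84 (exact permutation p = 0.00298, adjusted p = 0.0902) and rho = 0.86 (exact permutation p = 0.0107, adjusted p = 0.196), and r was again 0.84 without the 2 farthest mice, so this relation alone among the 4 kept its size. *Dlx5* and *Gsx2* gave r = 0.81 (exact permutation p = 0.00908, adjusted p = 0.0958) and rho = 0.79 (exact permutation p = 0.0279, adjusted p = 0.201), and r = 0.42 without the 2 farthest mice. *Dlx1* and *Dlx2*, the neighbours on chromosome 2, gave r = 0.82 (exact permutation p = 0.0106, adjusted p = 0.0958) and rho = 0.64 (exact permutation p = 0.0962, adjusted p = 0.385), but r = 0.14 without the 2 farthest mice, so that relation rested on them. No correlation was computed within the 5 females.

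**Figure D3:**
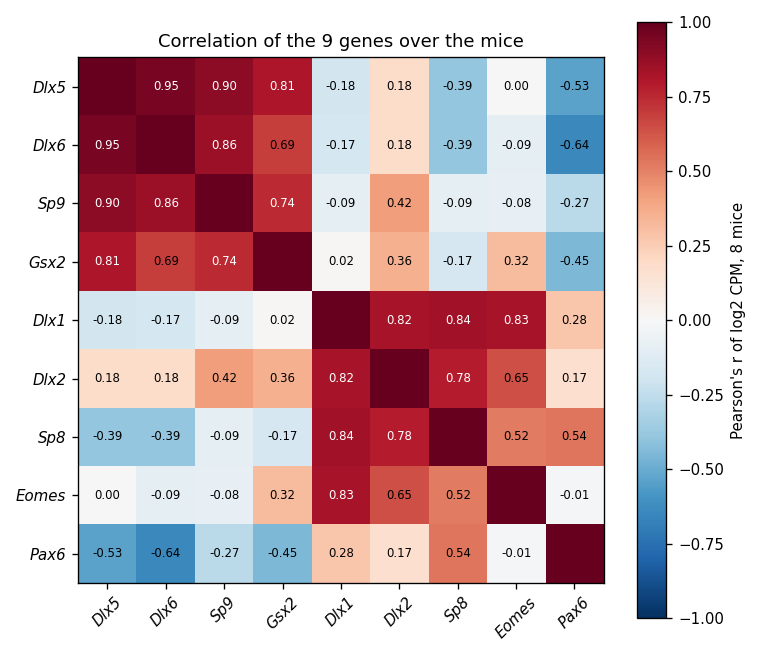
Each cell gives Pearson's r of log2 CPM over the 8 mice for 1 pair of genes, in red where positive and in blue where negative. Red cells lie among *Dlx5*, *Dlx6*, *Sp9* and *Gsx2*, with r from 0.69 to 0.95, and among *Dlx1*, *Dlx2*, *Sp8* and *Eomes*, with r from 0.52 to 0.84, and 4 of the 36 pairs passed an adjusted p of 0.1.

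Scores of 16 other gene lists, each the mean z-score of a list over the mice, were set against the 9 genes in 144 relations, of which 1 passed an adjusted p of 0.1 by Pearson's r and 0 by Spearman's rho. The 1 that passed was *Eomes* with the oligodendrocyte markers, at r = -0.93 (exact permutation p = 0.000645, adjusted p = 0.0929) and rho = -0.90 (exact permutation p = 0.00456, adjusted p = 0.164), with r = -0.88 without the 2 mice farthest in that score. *Dlx1* gave r = -0.87 with the same score (adjusted exact permutation p = 0.171) but -0.30 without the 2 farthest mice, and *Dlx2* gave -0.65 and -0.15. For the cortical excitatory neuron markers, r was -0.90 with *Dlx5*, -0.90 with *Dlx6*, -0.89 with *Gsx2* and -0.87 with *Sp9*, with adjusted exact permutation p of 0.110, 0.110, 0.110 and 0.118. Without the 2 farthest mice these became -0.72, -0.60, -0.63 and -0.02, so that of *Sp9* rested on them. With the striatal markers *Sp9* gave r = 0.88, *Dlx6* 0.86 and *Dlx5* 0.83, and 0.42, 0.35 and 0.30 without the 2 farthest mice. For the interneuron lineage genes downstream, *Gsx2* gave r = 0.89 and *Sp9* r = 0.88, each with an adjusted exact permutation p of 0.110, and 0.82 and 0.64 without the 2 farthest mice. *Dlx2* gave r = 0.85 with the ependymal markers (adjusted exact permutation p of 0.110) and 0.59 without the 2 farthest mice. *Sp9* gave 0.81 with the choroid plexus markers, and 0.81 without those mice. *Pax6* gave r = 0.79 and rho = 0.90 with the mature interneuron markers, and r = 0.92 without the 2 farthest mice. With the cell cycle markers, r ran from -0.33 for *Eomes* to 0.22 for *Sp8*. The part of these markers in the levels of the 9 genes was not tested. Without WT mouse 2 and KO mouse 2 together, 1 of the 9 genes was higher in KO and the other 8 lower, the median log2 fold change was -0.11, and 0 of 9 passed.

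**Figure D4:**
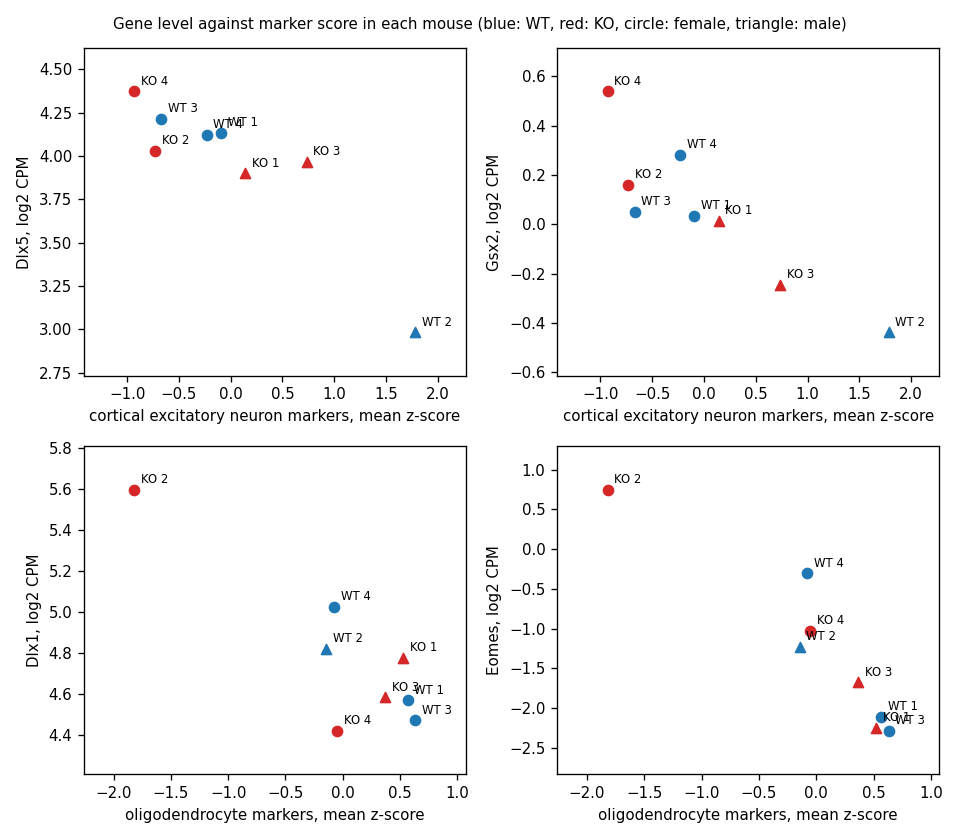
Each point is 1 mouse (blue for WT, red for KO, circles for females, triangles for males), with the mean z-score of a marker list on the horizontal axis and log2 CPM of 1 gene on the vertical axis. WT mouse 2 lies alone at the high end of the cortical score with the lowest *Dlx5* and *Gsx2*, and KO mouse 2 lies alone at the low end of the oligodendrocyte score with the highest *Dlx1* and *Eomes*.

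No gene of the lists around these factors passed the threshold. Among 13 upstream progenitor factors, 3 were higher in KO and 10 lower (median log2 fold change -0.13). They ran from *Gsx1*, the relative of *Gsx2*, at -0.28 (SE 0.31) to *Nkx2-1*, a ventral patterning factor, at 0.51 (SE 0.54).

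Among 16 genes of the interneuron lineage downstream, 10 were higher and 6 lower, with a median of 0.03. The extremes were *Calb2*, which encodes calretinin, at 0.75 (SE 0.69) and the nuclear receptor *Nr2f1* at -0.33 (SE 0.53). *Etv1*, a factor of olfactory bulb interneurons, had a log2 fold change of -0.19 (SE 0.14). *Gad1* and *Gad2*, which encode the enzymes that make GABA, gave 0.11 (SE 0.15) and 0.22 (SE 0.26). The summed level of these 16 genes was lowest in WT mouse 2, at 1323 CPM, with the other mice between 1838 and 2265 CPM. Of the sum in that mouse, *Gad1* gave 446 CPM, *Gad2* 277 CPM and *Meis2* 208 CPM. Its striatal marker sum was the lowest as well, at 3033 CPM, and which cells carried the difference was not tested.

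For the glutamatergic lineage of *Eomes*, 6 of 8 factors were tested and 6 of 6 were lower in KO (median -0.79), from *Emx1* at -1.17 (SE 1.20) to *Neurod4* at -0.45 (SE 0.61). *Neurog1* and *Neurog2* did not pass the filter on low counts. *Neurod1*, a factor of newborn glutamatergic neurons, gave -0.47 (SE 1.12). *Tbr1*, which follows *Eomes* in that lineage and is also a cortical neuron marker, was measured at 33.9, 155, 6.48 and 22.8 CPM in the WT mice and at 33.6, 8.85, 76.2 and 6.34 CPM in the KO mice. WT mouse 2 and KO mouse 3 were the highest, and the log2 fold change was -0.80 (SE 1.02). The summed level of the list was 314 CPM in WT mouse 2 and between 8.47 and 150 CPM in the other mice.

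Markers of the neurogenic lineage were read in the same way, in bulk tissue where other cells may also express them. In the neuroblast list, *Tubb3* had a mean of 339 CPM over the mice and *Nrxn3* 308 CPM, beside 29.1 CPM for *Dcx*. Of 9 neuroblast markers, 7 were higher and 2 lower, with a median of 0.07, from *Dcx*, the doublecortin gene of migrating neuroblasts, at -0.09 (SE 0.09) to *Sox11* at 0.12 (SE 0.18). *Dcx* was measured at 30.04 ± 2.21 CPM in WT and 28.2 ± 2.91 CPM in KO. Of 10 cell cycle markers, 1 was higher and 9 lower, with a median of -0.05, from *Mki67*, which encodes the Ki67 antigen, at -0.24 (SE 0.20) to *Aurkb*, a mitotic kinase, at 0.01 (SE 0.30). Of 10 neural stem cell markers, 3 were higher and 7 lower, from *Thbs4* at -0.55 (SE 0.23) to *Fabp7* at 0.46 (SE 0.20), and 0 had an adjusted p under 0.1 in edgeR. An unadjusted p under 0.05 was found for 4 of the 10, against 1.88% of all genes: *Thbs4*, *Fabp7* and, named after their values were seen, *Gfap* at -0.45 (SE 0.18) and *Id1* at -0.47 (SE 0.16).

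Markers of the other cells in the dissected tissue were all detected. 0 of 10 striatal medium spiny neuron markers were higher in KO, with a median of -0.08, from *Rgs9* at -0.13 (SE 0.29) to *Adora2a* at -0.03 (SE 0.34), and 9 of 10 cortical excitatory neuron markers were lower, with a median of -0.67 and *Rorb* the highest at 0.02 (SE 0.27). Mature interneuron markers ran from *Htr3a* at -0.91 (SE 0.52) to *Lhx6* at 0.30 (SE 0.20), ependymal markers from *Ccdc153* at -0.10 (SE 0.40) to *Pifo* at 0.27 (SE 0.34) and choroid plexus markers from *Aqp1* at -0.39 (SE 0.43) to *Prlr* at 1.81 (SE 0.98). Oligodendrocyte markers ran from *Mobp* at -0.18 (SE 0.09) to *Opalin* at 0.12 (SE 0.16), astrocyte markers from *Slc1a2* at -0.17 (SE 0.11) to *Agt* at 0.56 (SE 0.85), microglia markers from *Csf1r* at -0.35 (SE 0.14) to *Trem2* at 0.09 (SE 0.16) and endothelial markers from *Cdh5* at 0.00 (SE 0.16) to *Slco1a4* at 0.21 (SE 0.11). *Kcnj13*, of the choroid plexus list, did not pass the filter.

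Genes not annotated as protein-coding lie on the opposite strand over 4 of the 9 factors in Gencode M21: *Dlx1as* over *Dlx1*, *Dlx6os1* and *Dlx6os2* over *Dlx6*, *Pax6os1* over *Pax6* and *Gm33460* over *Eomes*. The protein-coding *Cir1* lies over *Sp9*. *Dlx6os1*, also known as *Evf2*, was measured at 37.7, 22.3, 37.8 and 27.9 CPM in the WT mice and at 39.0, 24.8, 30.3 and 40.4 CPM in the KO mice, with a log2 fold change of 0.10 (SE 0.21). WT mouse 2 was lowest for it, as for *Dlx6*. *Dlx1as* was measured at 1.78 ± 0.674 CPM in WT and 1.77 ± 0.313 CPM in KO, with a log2 fold change of -0.02 (SE 0.27), and *Pax6os1* did not pass the filter. The strand setting of the counting is not given in the sources used here, so reads of a gene and of its opposite-strand partner may not be told apart.

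At the level of single transcripts, 20 of the 50 annotated to the 9 genes could be tested. In edgeR 0 of the 20 passed an adjusted p of 0.1, against 0% of the 39966 transcripts tested in all, and 817 of these had an unadjusted p under 0.05. Groups did not overlap for 1 of the 20, against 2.01% of all transcripts. That 1 was *Dlx1-204*, a *Dlx1* transcript annotated as a target of nonsense-mediated decay, which was singled out after its values were seen. *Dlx1-204* leaves exon 1 at the same coding base as the main transcript, *Dlx1-201*, but enters exon 2 at a site 97 bases further on. The last 43 bases of exon 1 and the 17 bases that follow are shown for both, with those after the junction in capitals, from the Gencode M21 transcripts of GRCm38. In *Dlx1-204* the annotated coding sequence ends with these 17 bases.
Dlx1-201: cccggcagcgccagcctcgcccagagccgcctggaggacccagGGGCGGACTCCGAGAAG
Dlx1-204: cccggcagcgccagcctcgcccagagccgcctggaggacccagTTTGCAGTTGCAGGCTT

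The estimated counts of *Dlx1-204* were 39.4, 33.1, 40.5 and 42.7 in WT mice 1 to 4 and 0 in each of the 4 KO mice. The mean in WT was 0.743 ± 0.157 transcript CPM (SD, n = 4). That is at least 15.1-fold above a floor of 3 counts in each KO library. The floor covers counting error only, not the division of reads among transcripts. In edgeR its unadjusted p was 2.96e-05 and its adjusted p 0.197, which misses the threshold, and the adjusted p was 0.693 with sex as a covariate and between 0.219 and 0.814 when each mouse was dropped in turn. Of its 783 windows of 31 bases, 26 are in no other *Dlx1* transcript, and all other reads had to be divided among transcripts by estimation. Over all transcripts, 4 had at least 30 counts in every WT mouse and 0 in every KO mouse, and 6 had the reverse.

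*Dlx1-201*, by comparison, was estimated at 964, 1252, 748 and 1075 counts in the WT mice and at 1010, 2358, 1411 and 1096 counts in the KO mice. KO mouse 2 was again the highest, and the log2 fold change was 0.35 (SE 0.28). *Dlx1-203*, *Dlx1-205* and *Dlx1-206* gave -0.29 (SE 0.29), 0.56 (SE 0.56) and 0.12 (SE 0.40). *Dlx1-204* made up 12.3% of the *Dlx1* TPM in the WT mice on average. Its share of the estimated counts was smaller, at 39.4 of 1316 in WT mouse 1 and 40.5 of 1039 in WT mouse 3. TPM corrects for length, and *Dlx1-204* has 813 bases against 4111 for *Dlx1-201*.

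**Figure D5:**
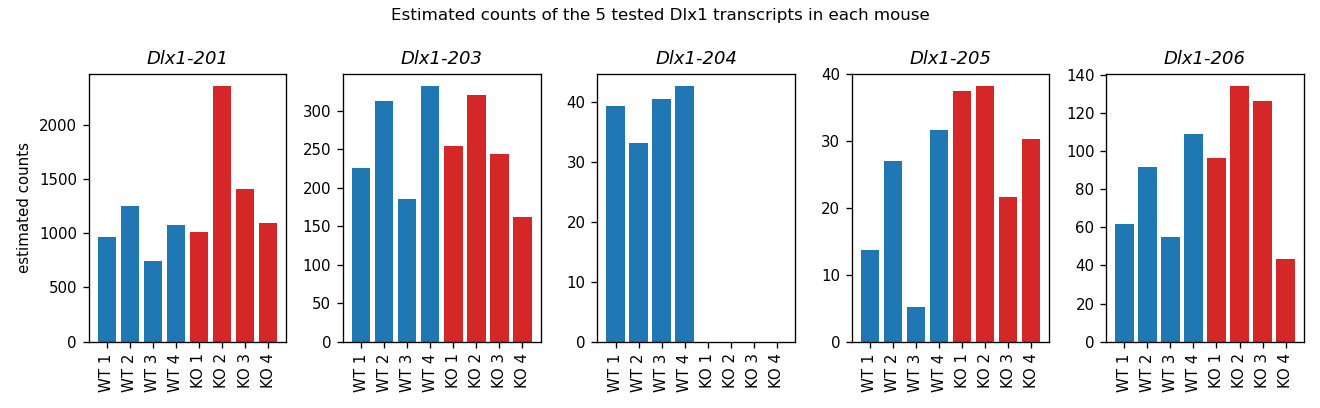
Bars give the estimated counts of the 5 tested *Dlx1* transcripts on the vertical axes, which differ in scale, for the 4 WT mice (blue) and the 4 KO mice (red). *Dlx1-204* was estimated at 33.1 to 42.7 counts in the WT mice and at 0 in every KO mouse, and the groups overlapped for the other 4.

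The promoters of 7 of the 9 genes, in 10 entries, were in the RefSeq table of GRCm38.p6. They are shown for *Gsx2*, *Sp9* and *Dlx2*, so that the GC box match of each can be seen in its place, as the 250 bases before the start, read along the gene's own strand, at chr5:75075351-75075600 (plus strand), chr2:73271676-73271925 (plus strand) and chr2:71546755-71547004 (minus strand). The capitals mark GGGCGG or its reverse complement, the core of the GC box bound by Sp-family proteins.
Gsx2: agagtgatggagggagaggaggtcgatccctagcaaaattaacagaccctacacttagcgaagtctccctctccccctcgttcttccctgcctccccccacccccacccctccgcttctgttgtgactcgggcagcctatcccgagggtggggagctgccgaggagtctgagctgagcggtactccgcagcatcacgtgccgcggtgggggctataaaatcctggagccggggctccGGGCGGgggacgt
Sp9: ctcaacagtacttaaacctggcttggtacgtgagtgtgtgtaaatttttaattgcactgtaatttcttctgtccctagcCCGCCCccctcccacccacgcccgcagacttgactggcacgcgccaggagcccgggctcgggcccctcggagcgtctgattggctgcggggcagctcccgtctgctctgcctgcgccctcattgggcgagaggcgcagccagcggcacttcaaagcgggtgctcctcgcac
Dlx2: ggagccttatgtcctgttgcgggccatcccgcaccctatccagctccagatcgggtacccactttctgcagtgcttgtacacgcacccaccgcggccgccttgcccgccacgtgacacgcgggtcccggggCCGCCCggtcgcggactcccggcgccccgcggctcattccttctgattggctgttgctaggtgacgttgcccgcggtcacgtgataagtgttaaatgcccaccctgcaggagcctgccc

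The GC box core was in 4 of the 10 entries, against 32.7% of all 32851 promoters of this length. The 3 entries shown were picked from those with the match. Their GC content was 63.6% for *Gsx2*, 62.4% for *Sp9* and 66.4% for *Dlx2*, against a median of 52.4% over all promoters. The part of GC content in the matches was not tested. The homeobox core TAATTA was in 1 of the 10, the last of the 3 *Sp8* entries, against 4.84% of all, and the E-box CAGCTG in 0 of the 10, against 13% of all. Both strands were searched, and the 3 words do not contain each other.

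The genes most alike in pattern to each factor were found among the genes tested with a mean of at least 1 CPM, by Pearson's r of log2 CPM over the 8 mice, as a description. They were *Rhbdd2* for *Dlx1* (0.97), *Gcdh* for *Dlx2* (0.97), *Arl14ep* for *Dlx5* (0.99), *S100pbp* for *Dlx6* (0.99), *Rmc1* for *Gsx2* (0.97), *Stub1* for *Sp8* (0.96), *Dsg1c* for *Sp9* (0.99), *Gm13375* for *Pax6* (0.98) and *Psd2* for *Eomes* (0.99). The mean z-score of the 9 was most like *Adcyap1r1*, which encodes a receptor for the neuropeptide PACAP, at 0.996, followed by *F2r* (0.99), *Cnnm3* (0.99), *Clic4* (0.98) and *Gm11992* (0.97), of 14444 genes compared. With 8 mice and so many genes, values of this size are those of the top of a long list.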

How the data were processed

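PolyA-selected RNA of 4 WT and 4 KO mice was sequenced. The authors made FASTQ files with bcl2fastq 2.20, ran Salmon (version not given in the sources used here) against Gencode M29, and deposited a gene table of estimated counts and 1 file a mouse with each transcript's estimated counts and TPM, not normalized further. Columns were matched to mice by animal tags and equal totals.

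Estimated counts were rounded and KO was compared with WT in edgeR 4.0.16 (R 4.3.3) by its quasi-likelihood test, after TMM and filterByExpr and with no covariate, adjusted over all genes tested at a threshold of 0.1, as the study used with DESeq2. DESeq2 1.42.0 was an alternative. The standard error is the log2 fold change over the square root of F. Log2 CPM for correlations used a prior count of 2. Permutation tests (SciPy 1.17.1, Python 3.11.15) enumerated all orders of the 8 mice and were two-sided. The steps were tested on simulated data. Gencode M21 of GRCm38, an older release than the authors', matched 97.41% of transcripts and served for names, transcript structure and positions; 94.8% of identifiers were named.

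The 9 genes and the lists were chosen with earlier results of these data known. Named from each list were its highest and lowest genes by fold change, with the genes most like each factor and *Gsx1*, *Etv1*, *Gad1*, *Gad2*, *Neurod1*, *Tbr1*, *Dcx*, *Mki67* and noncoding partners in any case; some genes the rule names are not reported here. Alternatives were other normalization, filters, DESeq2, sex, females only, a replicate block, each mouse left out, a threshold of 0.05 and, after seeing the data, transcripts and a fit without WT mouse 2 and KO mouse 2. Count intervals and floors cover counting error only.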

Additional observations from a re-analysis of the deposited data

Results flagged for a closer look

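Among 54 groups of 4 values checked with Dixon's test at its 95% level, 4 had a mouse far from the others, where chance gives about 1 in 20, and the mouse was WT mouse 2, the only male of its group, each time. Its *Dlx5* level was 7.87 CPM, with the nearest WT mouse at 17.4 CPM. Its summed level was 1323 CPM for the interneuron lineage genes downstream of the *Dlx* factors (nearest 2048). Of that sum, *Gad1* gave 446 CPM, *Gad2* 277 CPM and *Meis2* 208 CPM, and which cells carried the difference was not tested. Its summed level was 314 CPM for the glutamatergic lineage factors (nearest 59.7) and 7005 CPM for the cortical excitatory neuron markers (nearest 3248).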

How the results depend on the processing

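0 of the 9 genes passed the threshold in any of the 18 alternative fits in which they were tested, which was 17 for *Eomes*. The 18 include the main fit read at a threshold of 0.05, which could add no gene. Their directions were less steady. *Sp9* turned positive, at 0.16 in DESeq2 with sex, 0.17 in edgeR with sex and 0.049 with the replicate number as a block. The replicate numbers did not pair the mice, since same-numbered deviations correlated at 0.08, -0.22, -0.22 and 0.27, and the replicate block changed no other direction and took the count of all genes called from 1 to 0. With 1 mouse left out at a time, the log2 fold changes ran from -0.14 to 0.32 for *Dlx1*, -0.15 to 0.13 for *Dlx2*, -0.079 to 0.24 for *Dlx5*, -0.10 to 0.30 for *Dlx6*, -0.019 to 0.26 for *Gsx2*, -0.15 to 0.30 for *Sp8*, -0.21 to 0.13 for *Sp9*, -0.17 to -0.05 for *Pax6* and -0.33 to 1.31 for *Eomes*, and their median from -0.10 to 0.21. The mice that decided a direction were WT mouse 2 for *Dlx5* and *Dlx6*, KO mouse 2 for *Dlx1* and *Eomes*, KO mouse 4 for *Gsx2*, and several for *Dlx2*, *Sp8* and *Sp9*. Without WT mouse 2 and KO mouse 2 together, a fit chosen after seeing the data, *Dlx1* gave -0.11, *Dlx2* -0.21, *Dlx5* -0.064, *Dlx6* -0.12, *Sp8* -0.063 and *Eomes* -0.31, with a median of -0.11. Over all genes, the count past the threshold was 2 without a filter, 0 with at least 10 counts in every mouse, 12 in DESeq2, 201 in DESeq2 with sex, 2 in edgeR with sex, 3 in females only, 3 without both mice, and 0 to 3 when each mouse was dropped in turn. The cause of these differences was not tested. Counting error was 13.1% for *Gsx2*, 18.4% for *Eomes* and 2.36% to 5.15% for the other genes, below the spread over the 8 mice for each of the 9.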
